A study of Dunaliella salina with 9 samples.

Results

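Among the transcript clusters of the salt-tolerant green alga Dunaliella salina, 266 had no counts in any of the 3 libraries from white light and were present in all 6 libraries from blue and red light. They were chosen by a rule on the counts themselves: a count of 0 in each white library and at least 5 CPM (the count divided by the library's total and multiplied by 1e+06) in each blue and red library. They make up 0.229% of the 115975 clusters in the series and 2.15% of the 12368 clusters that reach 5 CPM in each blue and red library. The absence from white and the presence in blue and red are therefore how the clusters were selected, not findings, and are described without a test. The rule did not ask how the clusters compare between blue and red or how much they vary between libraries of a light. Nor did it ask how long they are or how their reads were assigned. Its minimum of 5 CPM in each blue and red library does limit how far a cluster of low level can fall in any of them.

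RNA was sequenced from cultures in mid-exponential growth that had been moved to fresh medium under blue light of 450 nm, red light of 660 nm or cool white light. The photon flux was the same for all, at 50 µmol per square metre and second. Each light has 3 libraries, the labels name no strain, and they list no treatment other than the light. Before the move the cells had grown under cold white lamps with daily light and dark phases. The labels do not say whether each library came from a culture of its own, so the p-values may measure only technical spread. They give no date or batch either, so a difference of the white libraries as a set and the effect of the light cannot be told apart. In RNA from whole cultures, fewer cells expressing a transcript and less of it per cell cannot be told apart.

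Dunaliella cells lack a rigid wall and are cultured for β-carotene, which they can store in droplets inside the chloroplast. Green algae absorb both red and blue light through chlorophyll and blue light also through carotenoids, and they sense blue light through cryptochromes and phototropins, which are photoreceptors with flavin pigments. White lamps deliver a broad spectrum that contains both bands. The title of the series asks how red and blue light change transcription with regard to carotenoid synthesis. The cluster identifiers are not paired with gene names in the files, and none matched the 16683 genes of the reference table for D. salina, so the members carry no known function here and pathway lists could not be applied. For that reason only a few identifiers are named, and the other members are given by rank, range and count.

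The totals behind the values were 17905778 to 19921151 counts in blue, 17674678 to 24526786 in red and 16279167 to 19888088 in white. A count of 0 allows up to 0.151 to 0.184 CPM in a single white library and up to 0.0551 CPM over the 3 white libraries together. These limits take 3 counts as the floor and cover counting error only, since the sources used here mention no molecular identifiers. A cluster at exactly 5 CPM would have had 272 counts over the white libraries.

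The members together held 0.784%, 0.744% and 0.779% of the counts in blue 1 to 3, against 0.739%, 0.708% and 0.787% in red 1 to 3. The ranges of blue and red overlapped, with means of 0.769% ± 0.022 in blue and 0.745% ± 0.040 in red (SD, n = 3 each). The median member had 18.3 to 18.9 CPM in the blue libraries and 17.2 to 17.7 CPM in the red ones. The folds that follow are in unscaled CPM. TMM factors from edgeR, which set the bulk of clusters equal, were 0.788 to 0.936 in white, 1.09 to 1.16 in blue and 0.999 to 1.08 in red. Scaled folds would therefore be lower. Set against the floor of 3 counts over the white group, pooled blue counts gave a fold of at least 103 for the lowest member and 336 for the median one. Pooled red counts gave at least 106-fold for the lowest member and 317-fold for the median one. The rule fixes the low end of these folds, since it asks for at least 5 CPM, against a floor of 0.0551 CPM.

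The zero in white was set beside low levels in white, as a description of values that the rule used. Of the 12368 clusters on in blue and red, 266 had exactly 0 counts over the white libraries, 52 had above 0 and up to 3 counts, 67 had above 3 and up to 10, 403 had above 10 and up to 100, and 11580 had more than 100. The median of all 12368 was 977 counts. The class just above 0 was thus smaller than the class at 0. The 52 clusters just outside on the white side had a median level of 21.5 CPM in blue and red, beside 18.0 CPM for the members, and the one nearest to 0 had 0.01 estimated counts. On the other threshold, 26 members had their lowest blue or red library between 5 and 6 CPM, and 33 clusters with no white counts had theirs between 4 and 5 CPM.

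**Figure D1:**
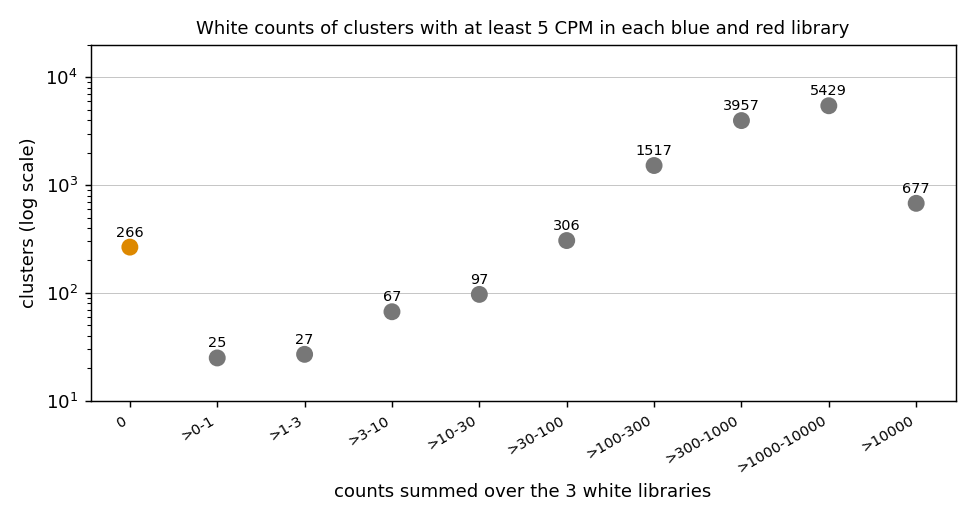
Each point is the number of clusters (log scale) with a given count summed over the 3 white libraries (horizontal axis, in classes of counts), among the 12368 clusters with at least 5 CPM in each blue and red library. The 266 clusters at exactly 0 (orange) outnumber the 25 above 0 and up to 1 count and the 27 above 1 and up to 3 counts, and the numbers then climb to 5429 between 1000 and 10000 counts.

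The same limits were then applied to each light in turn. In all, 0 clusters were silent in all blue libraries and on in all red and white ones, 0 were silent in all red libraries and on in all blue and white ones, and 266 were silent in white alone. The mirror pattern, on in all libraries of 1 light and at 0 in all others, held for 1 cluster in blue, 0 in red and 43 in white. With every library thinned at random to the size of the smallest, 0 clusters were silent in blue, 0 in red and 283 in white. Counts were rounded before this single draw, so small fractions became 0 there, unlike under the rule. A minimum of 2 CPM gave 0, 0 and 457, and a minimum of 10 CPM gave 0, 0 and 166.

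The white libraries did not share all their zeros. Of the 12368 clusters on in blue and red, white 1 had 402 at 0, white 2 had 691 and white 3 had 477, so the 266 shared ones were a part of each list. When the rule was applied without white 1, it chose 383 clusters, and 266 of them (69.5%) were also at 0 in white 1. The other 117 had a median of 1.64 CPM in white 1, with 35 of them at 5 CPM or more and the highest at 69.9 CPM. Without white 2 the rule chose 298 clusters, of which 89.3% were at 0 in white 2. The other 32 had a median of 0.947 CPM there, with 6 at 5 CPM or more. Without white 3 it chose 317, of which 83.9% were at 0 in white 3. The other 51 had a median of 0.508 CPM there, with 2 at 5 CPM or more and 37 under 1 CPM.

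The blue and red libraries were left out in the same way, where the limit is 5 CPM and not 0, so that the shares are not comparable with those of white. With blue 1, blue 2 or blue 3 held out, 97.8%, 97.4% and 97.1% of the clusters so chosen also reached 5 CPM in the library held out. With red 1, red 2 or red 3 held out, the shares were 97.4%, 94.7% and 93.3%. Most of the failures lay below the limit rather than at 0, except in red 2, where 9 of the 15 clusters that failed were at 0.

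Levels of single clusters are compared per length, as FPKM, the authors' value, which divides a count by the cluster's effective length in kilobases and by the depth of the library. The most abundant member was Cluster-15686.41815, with an effective length of 1499 bases. It had 231, 311 and 626 FPKM in blue 1 to 3 and 305, 292 and 900 FPKM in red 1 to 3. Its means were 389 ± 209 FPKM in blue and 499 ± 347 FPKM in red (SD, n = 3 each), and library 3 was the highest in both lights. It ranked 285 among all 12368 clusters on in blue and red. The next was Cluster-15686.53909, of 473 bases, with 108, 135 and 112 FPKM in blue and 123, 140 and 156 FPKM in red. Its means were 118 ± 15 FPKM in blue and 140 ± 17 FPKM in red, with overlapping libraries. Neither passed the threshold between blue and red, with log2 differences of -0.43 ± 0.61 and -0.28 ± 0.14 (SE) and adjusted p-values of 0.72 and 0.27 from edgeR's quasi-likelihood test.

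Below these, the order by FPKM depends on very short clusters. The member ranked 3 had 8.91 to 10.4 CPM in blue and 9.21 to 11.2 CPM in red, which over an effective length of 83.2 bases came to a mean of 116 FPKM. The member ranked 5 had 63.0 bases and 5.42 to 8.03 CPM in blue and 5.50 to 6.35 CPM in red. Over all members the mean over blue and red ran from 0.707 to 444 FPKM with a median of 7.91 FPKM, beside a median of 14.5 FPKM in the 12102 other clusters on in blue and red. The share of clusters silent in white was 5.91% below 3 FPKM, 3.36% from 3 to 10, 1.85% from 10 to 30, 0.754% from 30 to 100 and 0.385% at 100 FPKM or more. By CPM it was 2.87% between 5 and 10 CPM and 0.544% at 100 CPM or more.

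**Figure D2:**
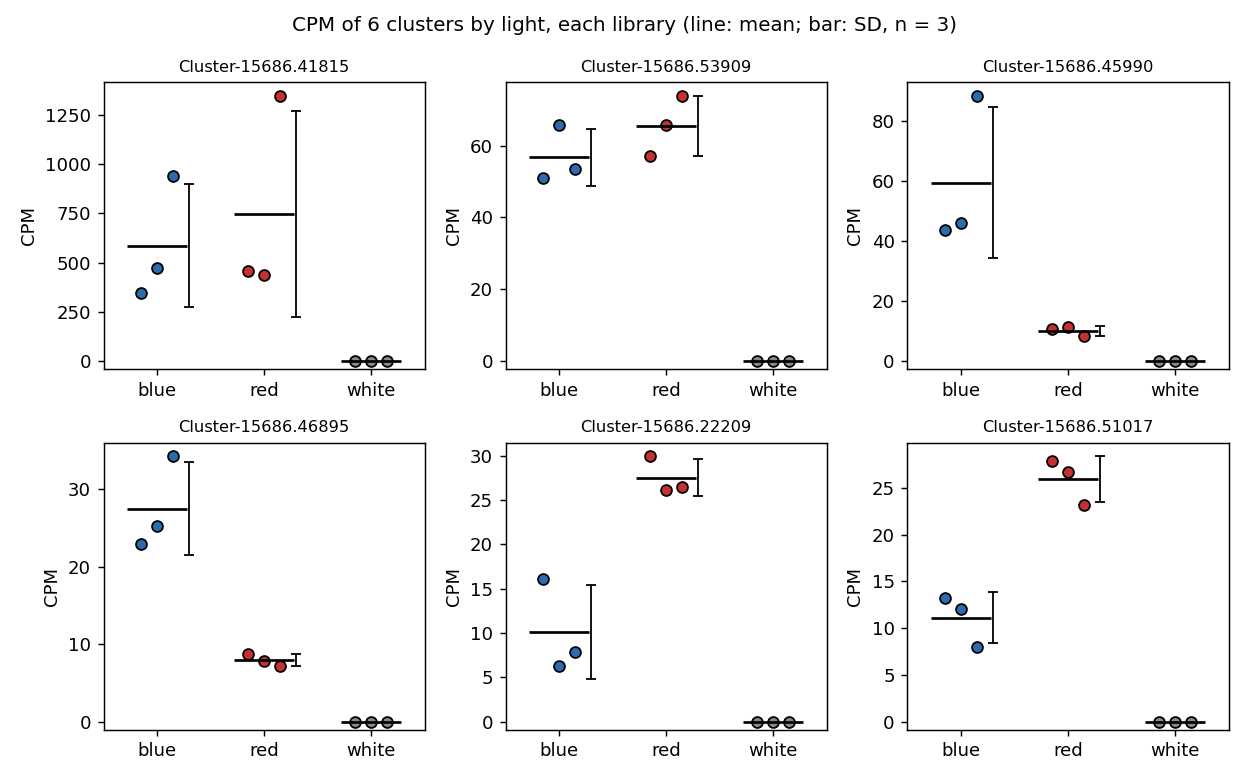
CPM of the 6 named clusters in each library (vertical axis, own scale per panel) by light, with points for libraries, lines for means and bars for SD (n = 3). Cluster-15686.41815 and Cluster-15686.53909 overlap between blue and red, Cluster-15686.45990 and Cluster-15686.46895 are higher in every blue than in every red library, Cluster-15686.22209 and Cluster-15686.51017 are lower in every blue than in every red library, and all are at 0 in white by the rule.

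Blue was then compared with red, a comparison that the rule did not make. Its minimum of 5 CPM in each blue and red library still limits large differences in members of low level. The 12368 clusters on in blue and red meet the same minimum, but not all clusters tested do. Most members differed by less than 1.5-fold between the bands. The fitted log2 difference had a median of 0.020 over the members, with quartiles of -0.25 and 0.23, beside a median of 0.0078 over all 35237 clusters tested and of 0.039 over the 12368 clusters on in blue and red. The difference was under 1.5-fold in 228 members (85.7%) and under 2-fold in 256 (96.2%), beside 84.9% and 95.7% of the 12368. Across the members, the log2 means in blue and red correlated with r = 0.908 (Pearson) and rho = 0.879 (Spearman) (n = 266 clusters, which share libraries and are not replicates). Between single libraries of a light, r was 0.909 to 0.921 in blue and 0.919 to 0.936 in red. Means of 3 libraries carry less noise than single libraries, so these values are not comparable with the r of 0.908.

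In blue, 15 members were higher and 14 lower than in red (edgeR's quasi-likelihood test on the 6 blue and red libraries, Benjamini-Hochberg adjusted p under 0.05 over all clusters tested). That is 10.9% of the members, all of which passed the filter on low counts. The background was 11.1% of all clusters tested, with 5.81% higher and 5.24% lower, so the members' share lies near it. Among clusters with at least 5 CPM in each blue and red library, the level the members had to reach, it was 23.7%, with 12.3% higher and 11.4% lower, which is more than the members' share. The other 237 members did not pass, which does not show that they were equal. The median standard error of the log2 difference was 0.15.

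All 29 called members had blue and red libraries that did not overlap in CPM. Among all members, 61 had all blue libraries above all red ones and 31 had all blue libraries below, together 34.6%, against 54.3% of the 12368 clusters. In unscaled CPM, 36.3% of the 12368 lay above in this sense and 17.9% below. With library totals in place of TMM factors (edgeR's scaling, which sets the bulk of clusters equal), 32 members were called higher and 13 lower. All clusters tested shifted likewise at that setting, with 13.2% called, 8.6% higher and 4.6% lower. The members' share there was 16.9%, below the 29.2% among clusters with at least 5 CPM in each blue and red library. A fit of all 9 libraries called 3 members higher and 1 lower. The background of that fit was 1.69% of all clusters tested, with 0.667% higher and 1.02% lower. Among clusters with at least 5 CPM it was 4.23%, with 1.45% higher and 2.78% lower.

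The member with the largest increase in blue by the naming rule was Cluster-15686.45990 (1163 bases). It had 43.7, 46.1 and 88.4 CPM in blue 1 to 3, against 10.6, 11.3 and 8.18 CPM in red 1 to 3. Every blue library stood above every red one, and blue 3 lay far above the other blue libraries. The log2 difference was 2.51 ± 0.34 (SE), or 5.70-fold (edgeR adjusted p = 0.0088). The next was Cluster-15686.46895 (867 bases), with 23.0, 25.3 and 34.3 CPM in blue, against 8.77, 7.83 and 7.23 CPM in red. Its libraries did not overlap, and the log2 difference was 1.73 ± 0.19, or 3.32-fold (edgeR adjusted p = 0.0048).

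The member with the largest decrease in blue was Cluster-15686.22209 (3789 bases). It had 16.1, 6.26 and 7.85 CPM in blue 1 to 3, against 29.9, 26.1 and 26.5 CPM in red 1 to 3. The red libraries were close together, and blue 1 lay far above the other blue ones. The log2 difference was -1.52 ± 0.35 (edgeR adjusted p = 0.046), and the call was lost without any 1 of blue 2, blue 3, red 1, red 2 and red 3 (adjusted p = 0.094 to 0.15) as well as with all 9 libraries in 1 fit (0.17) and without the filter on low counts (0.19). The next was Cluster-15686.51017 (543 bases), with 13.2, 12.1 and 8.04 CPM in blue, against 27.9, 26.7 and 23.2 CPM in red. Its log2 difference was -1.30 ± 0.17 (edgeR adjusted p = 0.0081), and the call was lost with all 9 libraries in 1 fit (adjusted p = 0.058).

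The other called members differed less. The 15 that were higher in blue had log2 differences from 0.28 to 2.51 with a median of 0.83, and 5 reached 2-fold. Added up, their means came to 849 CPM in blue and 503 CPM in red. The 14 that were lower had a median log2 difference of -0.64, with the smallest at -0.27, and 4 reached 2-fold. Their means added up to 452 CPM in blue and 681 CPM in red. Small differences passed in abundant members with close libraries, such as the one of 2866 bases with 122, 130 and 124 CPM in blue, against 97.0, 101 and 97.8 CPM in red (log2 difference 0.28 ± 0.053, edgeR adjusted p = 0.024). A larger one failed where the libraries were far apart. A member of 1296 bases with 20.2, 32.7 and 73.4 CPM in blue, against 11.3, 10.8 and 8.36 CPM in red, had a log2 difference of 2.00 ± 0.50 and an edgeR adjusted p of 0.057.

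The number of calls depended on the libraries and on the tool. It was 29 with all 6 libraries and 14 without blue 2, 19 without blue 3, 13 without red 1 and 13 without red 2. The share of all clusters tested that was called fell too, from 11.1% with all libraries to 4.74%, 5.42%, 3.65% and 3.61% in the same order. DESeq2 called 32 members higher and 35 lower, or 25.2% of the members. It called 19.4% of all clusters tested, 9.55% higher and 9.9% lower. Among clusters with at least 5 CPM in each blue and red library it called 36.4%, more than the members' share.

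**Figure D3:**
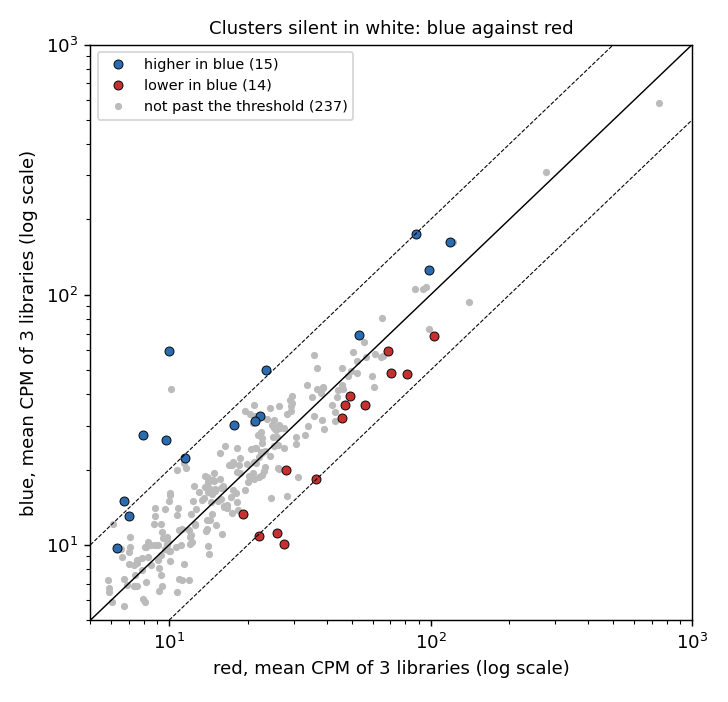
Mean CPM of each of the 266 members in blue (vertical) and red (horizontal), both on log scales, with 3 libraries per mean. The solid line marks equal levels and the dashed lines a 2-fold difference. The 15 members called higher in blue lie above the solid line, the 14 called lower lie below it, and 256 members have a fitted difference under 2-fold.

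The median member varied more between libraries of the same light than the median of the other clusters on in blue and red. The coefficient of variation of CPM had a median of 11.7% within blue and 11.6% within red over the members, against 7.93% and 7.26% over the 12102 other clusters on in blue and red. The highest library was at least 2-fold above the lowest in 26 members within blue (9.77%) and in 18 within red (6.77%), against 2.93% and 1.47% of the others. The members were also lower in level, with a median of 18.0 CPM, against 23.9 CPM in the others. Between 10 and 20 CPM the median coefficient was 13.5% in blue and 12.6% in red for 95 members, against 10.2% and 9.30% for 3362 others. Between 20 and 50 CPM it was 11.6% and 10.2% for 92 members, against 7.13% and 6.83% for 3900 others. At 100 CPM or more the 8 members had 4.45% in blue and 6.94% in red, against 4.96% and 3.99%, so the order turned in blue. Within white, the 43 clusters on only there had a median of 27.5%, against 18.1% in all clusters on in white. These are descriptions of clusters within the same libraries and were not tested. Of the members with such a 2-fold spread, 10 were in both lists, or 38.5% of the blue list and 55.6% of the red one. The highest library was blue 1 in 14 of the 26, and red 1 in 9 and red 3 in 7 of the 18, so the highest library was not the same throughout.

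Examples show spread without a common direction. A member of 2974 bases had 40.8, 6.92 and 8.59 CPM in blue and 7.80, 17.9 and 36.7 CPM in red, with the highest library 5.90-fold above the lowest in blue and 4.70-fold in red. It was high in blue 1 and in red 3. A member of 3797 bases had 17.4, 5.03 and 5.26 CPM in blue and 28.6, 6.04 and 8.08 CPM in red, and was high in library 1 of both lights. Among the variable members, 2 of 34 were called between blue and red. The called share of other clusters with such a spread was not computed, so this number is not a result about the members.

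**Figure D4:**
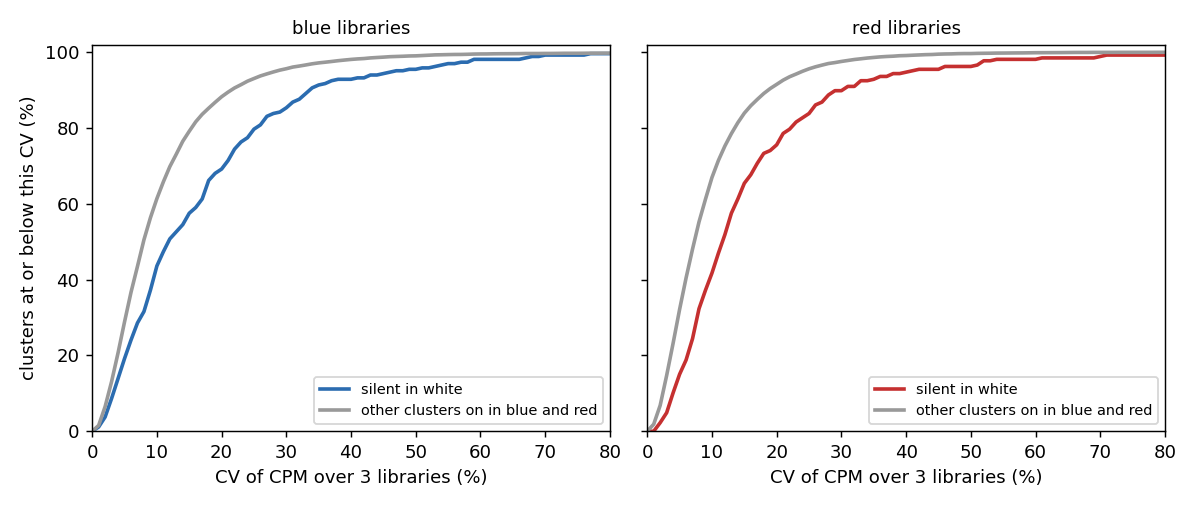
Cumulative share of clusters (vertical, percent) at or below a given coefficient of variation of CPM over 3 libraries (horizontal, percent), within blue (left) and red (right), for the members and for the other clusters on in blue and red (grey). The curves of the members lie to the right, with medians of 11.7% in blue and 11.6% in red, against 7.93% and 7.26% for the other clusters.

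The median member was longer than the median of the other clusters on in blue and red, a description with no test. The members' effective length had a median of 2298 bases and quartiles of 1422 and 3731 bases, against a median of 1756 and quartiles of 1080 and 2792 bases in the others. The shortest had 63.0 bases and the longest 12799 bases. The share silent in white was 1.07% under 1000 bases (29 of 2705), 1.95% from 1000 to 2000 (86 of 4405), 2.47% from 2000 to 4000 (94 of 3805) and 3.92% at 4000 bases or more (57 of 1453). At a given CPM a longer cluster has a lower FPKM, so the trends with length and with FPKM are not separate observations. The 43 clusters on only in white had a median of 2054 bases, against 1618 bases in all 10044 clusters with at least 5 CPM in each white library.

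A larger share of the members' counts were not whole numbers. The deposited counts carry 2 decimals, as can happen when a counting tool divides reads that fit several sequences. How these fractions arose was not tested. In the blue and red libraries, 84.0% of the members' values were not whole, against 61.4% in the other clusters on in blue and red. The difference was present in each length class, with 80.5% against 54.3% under 1000 bases and 91.5% against 77.1% at 4000 bases or more. The 43 clusters on only in white had 85.3% of values that were not whole in the white libraries, against 56.1% in all clusters on in white. Of the clusters on in blue and red, 2.85% of those with a fraction in any library were silent in white, against 0.678% of those with whole counts in all 9. These classes are unequal, since the white counts of members are whole by the rule and those of other clusters need not be. Whether reads of these clusters were given to similar sequences in the white libraries was not tested, since the files hold no sequences.

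**Figure D5:**
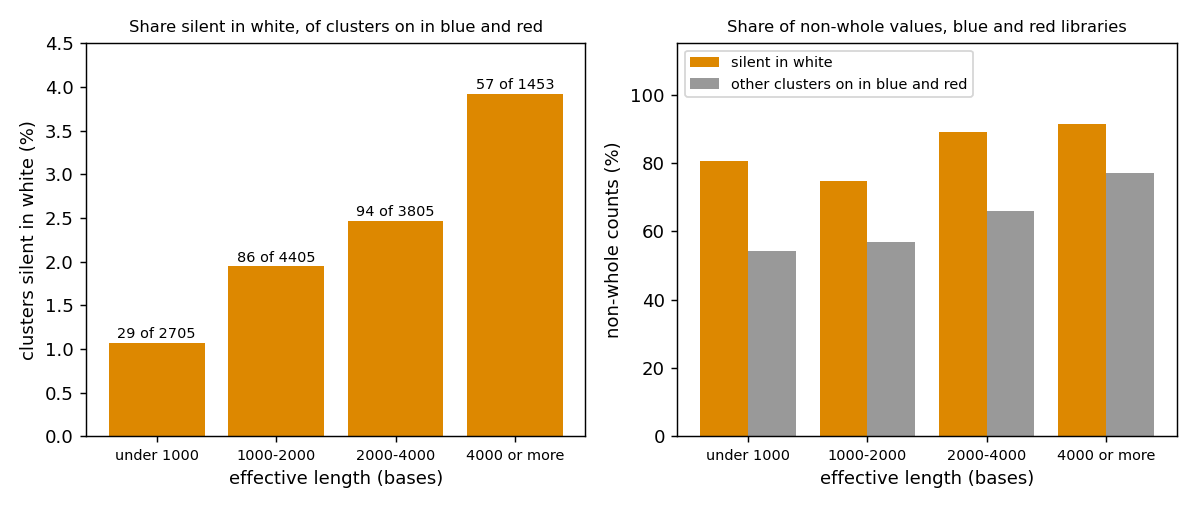
Left, the share of clusters on in blue and red that are silent in white (percent) by effective length, with their numbers. Right, the share of values in the blue and red libraries that are not whole numbers (percent), for clusters silent in white (orange) and other clusters on in blue and red (grey). The left share runs from 1.07% under 1000 bases to 3.92% at 4000 bases or more, and the orange bar is above the grey one in each class.

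For 27 members (10.2%) the counts were whole in all 9 libraries. White counts of members are 0 by the rule, so only the 6 blue and red libraries decide this for members. For other clusters all 9 do. The means of the 27 ran from 6.32 to 56.7 CPM over blue and red, and their effective lengths had a median of 1680 bases. They varied less between libraries than the rest, with a median coefficient of variation of 5.12% within blue and 7.78% within red, against 14.0% and 12.5% in the 239 other members. The same order was found in the other clusters on in blue and red, with 6.57% and 6.26% where all counts were whole, against 8.87% and 7.89% where they were not. With whole counts, the members thus had a lower median than the others in blue and a higher one in red. None of the 34 members with a 2-fold spread was among them. The most abundant of the 27 was a cluster of 872 bases with 59.6, 54.6 and 55.6 CPM in blue and 54.0, 58.3 and 58.3 CPM in red, which overlapped (log2 difference -0.076 ± 0.073, edgeR adjusted p = 0.58). The next had 1775 bases, with 50.3, 49.9 and 52.6 CPM in blue, against 32.5, 38.1 and 39.9 CPM in red. Its libraries did not overlap, and its log2 difference of 0.40 ± 0.11 did not pass (edgeR adjusted p = 0.066). Of the 27, 1 was called, a cluster of 3042 bases. It had 16.6, 13.9 and 14.6 CPM in blue, against 7.22, 6.96 and 6.03 CPM in red (log2 difference 1.09 ± 0.12, edgeR adjusted p = 0.0048). The called share of other clusters with whole counts was not computed, so the number of calls is not read as low or high. In unscaled CPM, the lowest of the 27 was at least 107-fold above the white floor of 3 counts in both lights. The rule's minimum of 5 CPM fixes the low end of that fold.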

How the data were processed

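Total RNA of 9 samples was sequenced, 3 per light, from libraries made with the NEBNext Ultra RNA kit per the labels' protocols. The authors deposited an estimated count and an FPKM value per cluster for each library. The aligner, counting tool, assembly and annotation are not given in the sources used here, and the submitters' processing notes name DESeq 1.10.1. Estimated counts are unscaled as deposited. Members were found on counts as deposited, and counts were rounded to whole numbers for tests. Effective length was derived from the count and the deposited FPKM, as the median over libraries with at least 50 counts.

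Blue and red libraries were fitted alone, because members hold no counts in white. A further reason was that earlier results of these data gave a larger spread in white than in blue or red. The fit used R 4.3.3, edgeR 4.0.16, filterByExpr at its default minimum count of 10 and minimum total of 15, TMM, glmQLFit robust and glmQLFTest. Standard errors were derived from the F statistic. P-values were adjusted by Benjamini-Hochberg over all 35237 clusters in the fit, and the threshold was 0.05. CPM in the text is not TMM-scaled. The code was tested on simulated data.

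The members, the measures and the alternatives were chosen with earlier results of these data known. The naming rule took the 2 members with the highest mean FPKM, and the 2 largest increases and decreases in blue among called members that averaged 10 CPM or more and whose libraries did not overlap. The other members described by their values were chosen after seeing them. Alternatives used DESeq2 1.42.0, limma 3.58.1, other scalings, filters, thresholds and left-out libraries. A chi-square averaged over the members, near 1 for repeat runs with simple counting error, was 14.8 or more for each pair within blue and within red. A few very variable members can raise such a mean, and estimated counts with fractions need not follow counting error. It therefore cannot decide whether any libraries were repeats of 1 culture.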

Additional observations from a re-analysis of the deposited data

How the results depend on the processing

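The 29 members called between blue and red (15 higher, 14 lower) became 4 (3 and 1) with all 9 libraries in 1 fit, 45 (32 and 13) with library totals, 67 (32 and 35) with DESeq2, 18 (9 and 9) without the filter, 12 (6 and 6) at an adjusted p under 0.01 and 9 (5 and 4) with a 2-fold minimum. With 1 library left out they were 13 to 24, 6 to 13 of them higher and 7 to 13 lower. RLE factors and limma-voom stayed within 1.5 times, with 29 and 35. The called share of all clusters tested, 11.1%, went to 9.87% with RLE factors and to 10.9% with limma-voom, so it did not follow the members there. At the other settings it moved in the same direction as the members' calls. DESeq2 gave 19.4% and library totals 13.2%. Among clusters with at least 5 CPM in each blue and red library they gave 36.4% and 29.2%, against 25.2% and 16.9% of the members. The 2-fold minimum gave 3.53%, the 0.01 threshold 3.47%, dropping the filter 2.47%, leaving out a library 3.61% to 6.84%, and the 9-library fit 1.69%. The replicate number as a block gave 19 calls (8 and 11), and 5.87% of all clusters tested. Deviations of blue and red libraries of the same number from the mean of their light were only weakly correlated (0.016, 0.028 and 0.0053). Each library did correlate best with its own number, which is only a hint. Values this small over all clusters in the fit cannot decide whether libraries of the same number share a batch. The median log2 difference of the members, 0.020, was -0.020 with all 9 libraries, 0.090 with library totals and -0.014 to 0.035 with 1 library left out.

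No named member reversed. Cluster-15686.46895 passed in all 13 alternatives. Cluster-15686.45990 was lost with the block (adjusted p = 0.0502) and Cluster-15686.51017 with all 9 libraries (0.058). Cluster-15686.22209 was lost in 8 of 13, with adjusted p from 0.062 to 0.19.

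The number of members, 266, was 457 at a minimum of 2 CPM, 166 at 10 CPM, 27 with whole counts only and 272 to 383 without 1 library. Clusters on only in white, 43, were 88 at 2 CPM, 25 at 10 CPM and 44 to 79 without 1 library, highest without white 1. Those on only in blue, 1, were 2 at 2 CPM, 0 at 10 CPM and 1 to 3 without 1 library. Those on only in red, 0, were 5 at 2 CPM, 1 after thinning and 0 to 2 without 1 library, and those silent in red, 0, were 0 to 2 without 1 library.

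The members' share of counts, 0.769% in blue and 0.745% in red, was 0.576% and 0.558% without the 10 most abundant, 0.0558% and 0.0501% with whole counts only, and 0.767% to 1.19% and 0.741% to 1.08% without 1 library. Their median length, 2298 bases, was 2415 where at least 200 counts were required, 1680 with whole counts only and 2210 to 2315 without 1 library. The median coefficient of variation in blue was 5.12% with whole counts only, an alternative added after seeing the data, as were the level classes of the spread and the left-out libraries for shares, lengths and patterns. What caused these shifts was not tested. With 3 libraries a light and a median standard error of 0.15 on the log2 scale, small differences between blue and red can be missed.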
